A study of Mus musculus with 8 samples.

Results

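The genes described here encode receptors and ligands of the CNTF and IL6 cytokine family in lung mesenchymal cells of mouse embryos with conditional deletion of Sin3a and of their controls. They are 8 genes of 51912 in the count table, matched by symbol, and all 8 were among the 20315 genes that passed the filter on low counts. Cntfr was chosen by its fold change between the groups, the largest fall among the genes named in an earlier account of this comparison. The other 7 (Lifr, Il6st, Osmr, Il6ra, Lif, Ctf1 and Clcf1) were chosen as its partners and relatives. The difference of Cntfr between the groups is therefore given as a description, with no test.

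Cytokines of this family signal through receptors built around a shared chain, gp130, which is encoded by Il6st. CNTFR is a lipid-anchored binding subunit with no intracellular part, which binds CNTF or CLCF1 and signals once LIFR and gp130 have joined it. LIFR and gp130 also serve LIF and cardiotrophin-1, OSMR pairs with gp130 for oncostatin M, and IL6RA brings IL6 to gp130. JAK kinases bound to these chains then phosphorylate STAT proteins, chiefly STAT3. In lung the family is best known from inflammation and repair, in which IL6, IL11 and oncostatin M act on epithelium and fibroblasts.

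RNA came from mesenchymal cells sorted from mouse lungs at embryonic day 16, although the labels also name the tissue as bulk lung. Both groups carried the transgenes Tbx4rtta and tetocre, in which the Tbx4-driven activator switches on Cre, and the mothers of both were fed doxycycline from embryonic day 12. The 4 controls were Sin3a F/+, with 1 floxed allele, and the 4 conditional knockouts (Sin3a CKO) were Sin3a F/F, so controls could lose 1 allele as well. Deletion is limited to cells in which the Tbx4 driver was active, and its extent is not shown. Libraries are labelled as biological replicates 1 to 4 of each group, with no statement of litter or sex, and p-values measure the spread between these libraries. Sin3a, which encodes the scaffold of histone deacetylase corepressor complexes, was at 51.4 ± 5.94 CPM in controls and 58.0 ± 3.78 CPM in Sin3a CKO (CPM, counts scaled to a common library size, per M of counts with M for mega; SD, n = 4 each). Its log2 fold change of 0.17 was not called (adjusted p = 0.191 by edgeR's quasi-likelihood test, with a call at a Benjamini-Hochberg adjusted p under 0.05). It was called higher with a block for prefix, described below, at 0.29, and without Control 4 and Sin3a CKO 3, at 0.22 (adjusted p = 0.0332 and 0.0455; 0.0332 to 0.706 over all alternatives), and counts over the whole gene do not check a deletion of some exons. Library totals were 96098322 to 108493347 counts. All 10 mesenchyme markers, such as Tbx4 and Pdgfra, were detected in every library. The summed level of 10 epithelial markers ran from 40.8 to 436.8 CPM in controls and from 46.4 to 1284.7 CPM in Sin3a CKO. That of 10 immune markers ran from 20.0 to 585.3 and from 272.8 to 458.7 CPM, with the lowest sum in Control 4. Control 4 (first principal component -114.9, other libraries -73.3 to 79.4) and Sin3a CKO 3 (highest epithelial sum) stood apart, and some results are also given without them. Sin3a CKO 4 stood apart on the second principal component (-99.5, other libraries -47.8 to 80.3).

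In Sin3a CKO mesenchyme the receptor genes Cntfr, Il6ra and Osmr and the ligand genes Lif, Ctf1 and Clcf1 were lower. The shared chains Lifr and Il6st were not called. Cntfr went from 26.9 ± 7.01 CPM in controls to 2.18 ± 1.80 CPM in Sin3a CKO (SD, n = 4 each). Of the other 7 members Osmr, Il6ra, Lif, Ctf1 and Clcf1 fell by edgeR's quasi-likelihood test, 5 in all, and 0 rose (0 also at an unadjusted p under 0.05 and with DESeq2 or limma-voom). Over all tested genes 16.1% were called lower by the same test and 17.3% higher. In 6 of the 8 members the groups did not overlap, with Sin3a CKO lower, as in 17.5% of all tested genes. These 6 include Cntfr, which was chosen for it, so no inference is drawn from the counts. With Control 3 left out 3 of the 7 were called lower, beside 14.0% of all tested genes. Lifr was also called with upper-quartile scaling, without a filter on low counts and with DESeq2, where 22.3%, 9.4% and 20.2% of all tested genes were called lower, and with replicate number as a block the count stayed at 5, beside 15.9%.

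**Figure D1:**
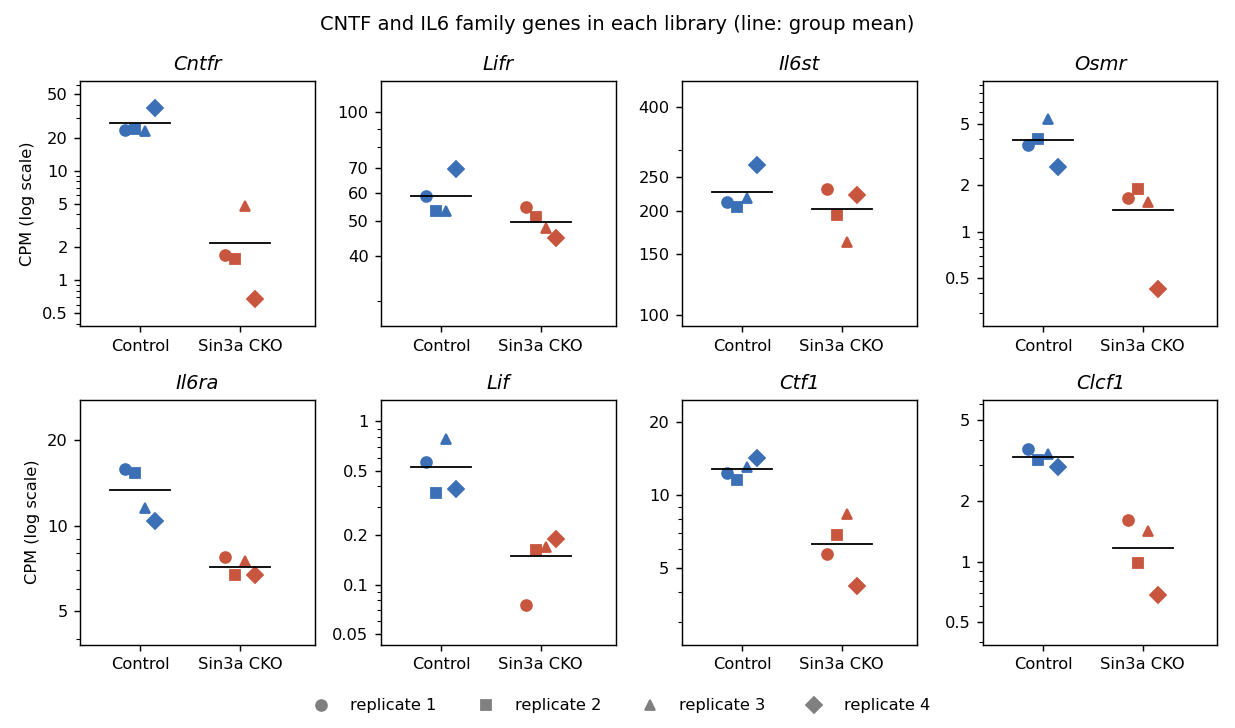
Level of each of the 8 genes in CPM (vertical axis, log scale) in the 4 Control and 4 Sin3a CKO libraries, with marker shape for replicate number and a line at the group mean. For Lifr and Il6st the groups overlap; for the other 6 genes all Sin3a CKO libraries lie below all controls.

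Cntfr (ENSMUSG00000028444, chromosome 4, 41657498 to 41697089, minus strand, GRCm38) was at 23.4, 23.8, 23.1 and 37.4 CPM in Control 1 to 4. It was at 1.69, 1.57, 4.79 and 0.671 CPM in Sin3a CKO 1 to 4, from 180, 153, 448 and 64 counts. The controls lay close together apart from the higher Control 4, whereas the highest Sin3a CKO library was 7.14 times the lowest. The fitted log2 fold change was -3.63, or 12.3-fold lower in Sin3a CKO. Without Sin3a CKO 3 the log2 fold change was -4.39, and without Control 4 and Sin3a CKO 3 together it was -4.22. Without Control 4 alone it was -3.47, and without Sin3a CKO 4, the lowest knockout library, it was -3.34. The labels give each sample an identifier with 1 of 3 prefixes of unstated meaning. Prefix s686 is on Sin3a CKO 4 and its controls 1 and 2, s722 is on Control 4 alone, and s1244 is on the remaining libraries, of which only Control 3 is a control. Within s686 the difference of Cntfr was -4.94 and within s1244 it was -3.06 on the log2 scale (of mean CPM + 0.1), each with 1 library on a side. Libraries of both sexes were in each group: Xist was at 174.2, 183.9, 139.2 and 117.1 CPM in Control 1, Control 2, Sin3a CKO 1 and Sin3a CKO 3 and at most 0.185 CPM in the others. Within s686, libraries with Xist are thus set against one without it. Within s1244, Control 3 without Xist is set against Sin3a CKO 1 and Sin3a CKO 3 with it and Sin3a CKO 2 without it.

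Cell markers also differed between the groups. As background to the counts of called markers, 16.1% of all tested genes were called lower and 17.3% higher. Epithelial sums followed the prefix, at 399.2 to 1284.7 CPM in the 4 libraries of s1244 and 40.8 to 55.1 CPM in the others, which include Sin3a CKO 4 with the lowest Cntfr. Of 8 smooth muscle markers 7 were called lower, and their sum was 1766.1 to 2678.5 CPM in controls and 1516.3 to 1652.5 CPM in Sin3a CKO. Of 6 pericyte markers 3 were called lower (sums 336.9 to 544.0 and 188.8 to 308.1 CPM), and of the 10 mesenchyme markers 6 (17303.8 to 23738.7 and 12424.2 to 14042.6 CPM). Of 7 tested erythroid markers 6 were called higher (100.5 to 882.6 and 1095.4 to 4290.1 CPM). Neural markers, a set of interest because CNTFR is best known from neurons, summed to 3.34 to 10 CPM in controls and 6.14 to 7.59 CPM in Sin3a CKO. Of the epithelial and the immune markers 0 were called by edgeR, at an unadjusted p under 0.05, or by DESeq2 or limma-voom. The part of these markers in the differences of Cntfr and its relatives was not tested. In such sorted bulk RNA, fewer cells that express a gene and less of its RNA per cell cannot be told apart.

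The signalling chains showed small differences. Il6st (ENSMUSG00000021756, chromosome 13, 112464070 to 112510086) was at 211.9, 205.7, 218.5 and 271.8 CPM in Control 1 to 4, against 232.0, 194.9, 162.5 and 222.2 CPM in Sin3a CKO 1 to 4. The ranges overlapped, with Sin3a CKO 1 above 3 of the 4 controls. Its log2 fold change of -0.16 ± 0.13 (SE) did not pass (edgeR adjusted p = 0.387). Lifr (ENSMUSG00000054263, chromosome 15, 7090614 to 7197489) was at 58.5, 53.2, 53.5 and 69.7 CPM in Control 1 to 4, against 54.8, 51.5, 47.8 and 44.9 CPM in Sin3a CKO 1 to 4. Here only Sin3a CKO 1 reached into the range of the controls. The log2 fold change of -0.24 ± 0.10 did not pass (edgeR adjusted p = 0.11), but it was called lower with upper-quartile scaling, without a filter on low counts and with DESeq2 (adjusted p = 0.0125, 0.0163 and 0.0316), over a range of fold changes from -0.27 to -0.34. Within prefixes s686 and s1244 the log2 differences were 0.09 and -0.15 for Il6st and -0.31 and -0.06 for Lifr.

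Osmr, the chain that pairs with gp130 for oncostatin M (ENSMUSG00000022146, chromosome 15, 6813577 to 6874969), was at 3.67, 3.98, 5.43 and 2.65 CPM in Control 1 to 4, against 1.67, 1.90, 1.56 and 0.430 CPM in Sin3a CKO 1 to 4. All Sin3a CKO libraries were below the lowest control, and Sin3a CKO 4 was far below the other 3. Osmr fell by 1.5 ± 0.42 on the log2 scale (SE, edgeR adjusted p = 0.0200), a call that ended without Control 3 (-1.30, edgeR adjusted p = 0.0533). Over all alternatives its adjusted p ran from 0.00116, with DESeq2, to 0.0533. Within prefix s686 the difference was -2.89, and within s1244 it was -1.61.

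Il6ra, the binding chain for IL6 (ENSMUSG00000027947, chromosome 3, 89864059 to 89913196), was at 15.9, 15.4, 11.6 and 10.4 CPM in Control 1 to 4, against 7.74, 6.71, 7.52 and 6.69 CPM in Sin3a CKO 1 to 4. The Sin3a CKO values lay within a narrow band, the highest being 1.16 times the lowest. Il6ra fell by 0.90 ± 0.16 (edgeR adjusted p = 0.00179), with -1.21 within prefix s686 and -0.66 within s1244. An annotated antisense gene overlaps Il6ra, and no source used here states whether the counting used strand.

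Among the ligands, Ctf1, which encodes cardiotrophin-1 (ENSMUSG00000042340, chromosome 7, 127712736 to 127718192), was at 12.4, 11.6, 13.1 and 14.2 CPM in Control 1 to 4, against 5.75, 6.90, 8.39 and 4.25 CPM in Sin3a CKO 1 to 4. The order of the Sin3a CKO libraries at its ends was that of Cntfr, with replicate 3 highest and replicate 4 lowest. Ctf1 fell by 1.02 ± 0.20 (edgeR adjusted p = 0.00294), with -1.48 and -0.89 within prefixes s686 and s1244. Clcf1, which encodes a secreted ligand of CNTFR (ENSMUSG00000040663, chromosome 19, 4214238 to 4223490), was at 3.61, 3.18, 3.39 and 2.92 CPM in Control 1 to 4, against 1.61, 0.986, 1.41 and 0.681 CPM in Sin3a CKO 1 to 4. The controls differed little among themselves, and the highest Sin3a CKO library was 2.36 times the lowest. Clcf1 fell by 1.48 ± 0.28 (adjusted p = 0.00261 by edgeR), with -2.16 and -1.28 within the prefixes. Another protein-coding locus, not analysed here, overlaps Clcf1 on the same strand, and an annotated miRNA gene overlaps it on the opposite strand, so reads of those stretches may be shared.

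Lif, which encodes leukaemia inhibitory factor (ENSMUSG00000034394, chromosome 11, 4257557 to 4272514), had few reads, with 59, 37, 84 and 38 counts in Control 1 to 4 and 8, 16, 16 and 18 counts in Sin3a CKO 1 to 4. These equal 0.364 to 0.779 CPM in controls and 0.0751 to 0.189 CPM in Sin3a CKO, and the groups did not overlap. Lif fell by 1.80 ± 0.47 (edgeR adjusted p = 0.0151), a call that ended without Control 3 (-1.54, adjusted p = 0.0541; up to 0.0541 over all alternatives). Its differences within prefixes s686 and s1244 were -0.97 and -1.89.

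**Figure D2:**
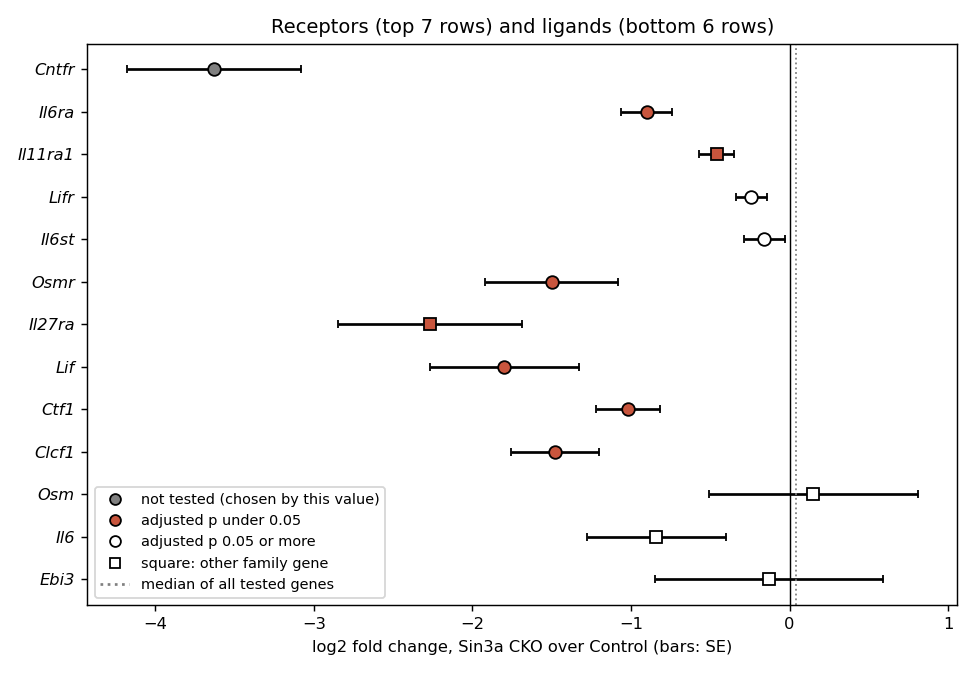
Fitted log2 fold change of Sin3a CKO over Control (horizontal axis, bars are SE, 4 against 4 libraries) for receptor genes in the upper rows and ligand genes in the lower rows, with circles for the 8 chosen genes and squares for other genes of the family. Cntfr lies at -3.63, Lifr and Il6st at -0.24 and -0.16, and the dotted line marks the median of all tested genes at 0.044. The bar of Cntfr is no test, because Cntfr was chosen by this value.

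Library by library, Sin3a CKO 4 held the lowest Sin3a CKO value for 6 of the 8 members (Cntfr, Lifr, Osmr, Il6ra, Ctf1 and Clcf1). The exceptions were Il6st, lowest in Sin3a CKO 3, and Lif, lowest in Sin3a CKO 1. Among controls, Control 4 was highest for Cntfr, Lifr, Il6st and Ctf1 and lowest for Osmr, Il6ra and Clcf1. Sin3a CKO 4 is the 1 knockout library with prefix s686, so its position and its prefix cannot be told apart.

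Levels of different genes were compared per length, as CPM per kilobase of annotated exon. In controls the order was Il6st (20.4 ± 2.74), Cntfr (9.68 ± 2.55), Ctf1 (7.04 ± 0.614), Lifr (5.45 ± 0.717), Il6ra (1.54 ± 0.309), Clcf1 (0.861 ± 0.0774), Osmr (0.325 ± 0.0946) and Lif (0.120 ± 0.0443; SD, n = 4 libraries each). The ranges over the 4 controls overlapped between Ctf1 and Lifr and between no other neighbours in this order. Control mesenchyme thus held more Cntfr than Lifr RNA per length, with Il6st above both.

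In Sin3a CKO the order per kilobase was Il6st (18.3 ± 2.82), Lifr (4.62 ± 0.401), Ctf1 (3.46 ± 0.962), Il6ra (0.83 ± 0.0633), Cntfr (0.783 ± 0.645), Clcf1 (0.308 ± 0.11), Osmr (0.115 ± 0.0542) and Lif (0.0345 ± 0.0117). Cntfr stood between Il6ra and Clcf1 here, and its range overlapped those of both. Overlaps were also found between Lifr and Ctf1 and between Osmr and Lif. With the length of the longest transcript in place of all exons, Cntfr (1.09 ± 0.901) and Il6ra (0.83 ± 0.0635) changed places.

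**Figure D3:**
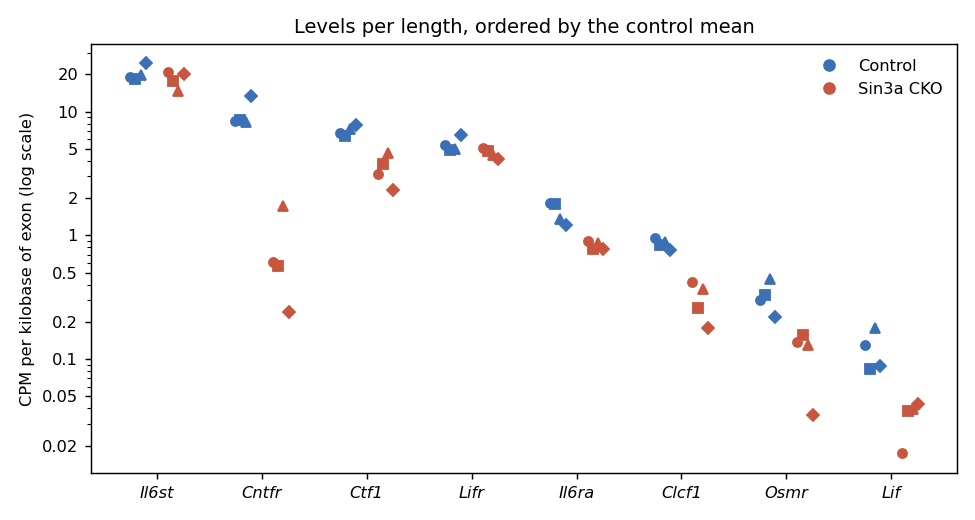
Level per length of the 8 genes (vertical axis, CPM per kilobase of exon, log scale), ordered by the control mean, with 1 point per library and marker shape for replicate number. Cntfr lies second in controls, at 8.29 to 13.5, and among Il6ra and Clcf1 in Sin3a CKO, at 0.241 to 1.72.

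The ratio of Cntfr to its co-receptors within a library does not depend on how libraries are scaled. Per kilobase, Cntfr was at 1.55, 1.73, 1.67 and 2.08 times Lifr in Control 1 to 4 and at 0.119, 0.118, 0.388 and 0.0578 times Lifr in Sin3a CKO 1 to 4. Cntfr RNA thus exceeded Lifr RNA in each control and lay below it in each Sin3a CKO library. The mean log2 ratio went from 0.80 ± 0.18 to -2.90 ± 1.14 (SD, n = 4 each). Relative to Il6st it went from -1.10 ± 0.17 to -4.88 ± 1.36, and relative to Il6ra from 2.64 ± 0.59 to -0.43 ± 1.09. No test was made, because Cntfr was chosen for its fall.

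**Figure D4:**
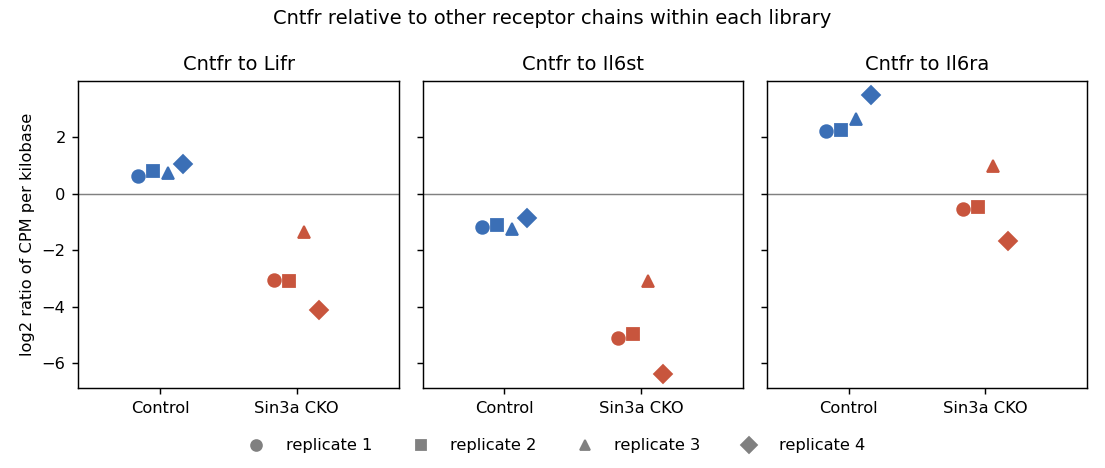
Log2 ratio of Cntfr to Lifr, Il6st and Il6ra in CPM per kilobase (vertical axis) in each Control and Sin3a CKO library, with marker shape for replicate number. Against Lifr the controls lie at 0.63 to 1.06 and the Sin3a CKO libraries at -4.11 to -1.36, with replicate 3 highest.

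By symbol, 7 of the 8 members had a start in RefSeq's promoter table for GRCm38.p6. For each, the 250 bases before the most upstream start in that table were read. These starts are not always the 5′ end of the GENCODE gene used for the coordinates above. They lie 38958 bases downstream of that end for Lifr, 1052 for Cntfr, 656 for Osmr and 11 for Lif, so the windows of Lifr, Cntfr and Osmr are inside the annotated genes. For Il6st and Il6ra the RefSeq and GENCODE starts coincide. What follows describes these windows and not the sequence at the GENCODE starts. The windows of Cntfr, which was chosen by its fall, of Il6ra, which fell, and of the shared chains that were not called are printed to show how they differ in composition. Capitals mark the GC box GGGCGG and the E-box CACGTG, on either strand, and these 2 motifs do not overlap in the windows.
Cntfr (chr4:41696038-41696287, minus strand): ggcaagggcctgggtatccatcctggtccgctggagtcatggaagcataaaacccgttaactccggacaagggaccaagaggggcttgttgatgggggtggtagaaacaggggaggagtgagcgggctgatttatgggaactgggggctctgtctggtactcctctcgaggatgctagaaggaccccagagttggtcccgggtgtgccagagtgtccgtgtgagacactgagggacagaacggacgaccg
Il6ra (chr3:89913197-89913446, minus strand): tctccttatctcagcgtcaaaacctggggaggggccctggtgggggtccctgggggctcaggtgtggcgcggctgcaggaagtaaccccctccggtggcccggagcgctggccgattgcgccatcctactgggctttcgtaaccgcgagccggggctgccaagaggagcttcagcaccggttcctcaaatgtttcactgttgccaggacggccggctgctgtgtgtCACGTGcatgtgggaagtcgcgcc
Lifr (chr15:7129322-7129571, plus strand): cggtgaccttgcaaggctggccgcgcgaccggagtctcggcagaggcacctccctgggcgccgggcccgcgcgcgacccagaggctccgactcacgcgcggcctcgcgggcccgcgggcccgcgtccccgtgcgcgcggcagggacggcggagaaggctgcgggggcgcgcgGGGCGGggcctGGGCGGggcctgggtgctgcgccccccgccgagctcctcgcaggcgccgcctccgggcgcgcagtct
Il6st (chr13:112463820-112464069, plus strand): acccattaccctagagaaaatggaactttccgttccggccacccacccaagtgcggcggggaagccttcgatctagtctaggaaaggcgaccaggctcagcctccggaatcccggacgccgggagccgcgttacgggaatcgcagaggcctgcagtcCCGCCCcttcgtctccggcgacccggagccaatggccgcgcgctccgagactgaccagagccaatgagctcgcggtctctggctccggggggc
The GC box was present in the windows of Lifr (2 copies), Il6st (1 copy) and Osmr (2 copies) and in 33.0% of 27025 such windows of all genes. The E-box, a site of the MYC and MAX family, was in that of Il6ra and in 6.04% of all windows. The STAT motif TTCNNNGAA, searched on both strands, was in 0 of the 7 windows and in 7.14% of all windows. The windows held 43 (Lifr), 26 (Il6st), 18 (Osmr and Il6ra), 10 (Cntfr), 6 (Lif) and 4 (Ctf1) CG dinucleotides, with a median of 6 over all windows. These matches are a description of letters in the windows.

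Several genes of the family lie next to each other in the genome. The nearest protein-coding neighbours of Cntfr were Il11ra1, the binding chain for IL11, at a gap of 2899 bases, and Enho, which encodes the secreted peptide adropin, at a gap of 17173 bases. Lifr and Osmr are neighbours on chromosome 15, Lif and Osm on chromosome 11, Il6st and Il31ra on chromosome 13, and Ctf1 overlaps Ctf2 on the opposite strand. Enho was at 12.2, 12.6, 12.5 and 12.9 CPM in Control 1 to 4, against 1.6, 1.25, 3.23 and 1.08 CPM in Sin3a CKO 1 to 4, so replicates 3 and 4 were again the highest and lowest knockout libraries. It fell by 2.81 ± 0.32 on the log2 scale (SE; edgeR adjusted p = 0.000202). Il11ra1, on the other side, was at 118.0 to 138.6 CPM in controls and 83.9 to 113.3 CPM in Sin3a CKO, and fell by 0.46 ± 0.11 (edgeR adjusted p = 0.00798). Without Sin3a CKO 3, its highest knockout library, Il11ra1 was at -0.62 ± 0.05 on the log2 scale. Near-identical copies of its relative Il11ra2 exist, so counts of these receptors may be split, although Il11ra2 had at most 1 count in any library at its locus on the assembled chromosome.

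Neighbours of the other members did not all move with them. Egflam, next to Lifr, which encodes a matrix protein, fell by 1.19 ± 0.20 (edgeR adjusted p = 0.00187), while Rictor, next to Osmr, was at 0.08 ± 0.09 (adjusted p = 0.565). Beside Il6ra, She fell by 1.23 ± 0.38 and Atp8b2 was at 0.11 ± 0.11 (adjusted p = 0.0333 and 0.517). Beside Clcf1, both Rad9a and Pold4, a subunit of DNA polymerase delta, rose, by 0.44 ± 0.08 and 0.43 ± 0.13 (adjusted p = 0.00275 and 0.0234). Fbxl19, near Ctf1, rose by 0.48 ± 0.11 and Bcl7c was at 0.10 ± 0.09 (adjusted p = 0.00720 and 0.451).

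The 5 genes most like Cntfr over the 8 libraries, by Pearson's r of log2(CPM + 0.1) among 10570 genes, were Prmt2, Fam69b, Wdr86, Prrx2 and Pccb. Their r ran from 0.996 to 0.997, and since both groups enter, it reflects the difference between groups as well as the order within them. In deviations from group means, r with Cntfr was 0.968 to 0.980, over the same 8 libraries. The 5 genes were picked by r over these libraries, so this second value is no separate support. Fam69b was nearest to Cntfr in the size of its difference, at 20.6 to 26.2 CPM in controls and 4.28, 4.42, 7.19 and 2.64 CPM in Sin3a CKO 1 to 4. Prrx2, a homeobox factor of mesenchyme, went from 34.3 ± 4.28 to 15.8 ± 3.61 CPM.

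The remaining ligands of the family were low or variable. Of 8 listed genes 3 were tested, and 0 of the 3 were called by edgeR, at an unadjusted p under 0.05, or by DESeq2 or limma-voom, with a median log2 fold change of -0.13. Osm was at 5.72, 6.64, 3.67 and 0.374 CPM in Control 1 to 4 and 2.84 to 6.06 CPM in Sin3a CKO, and Ebi3, a subunit of IL27, at 3.34, 2.75, 1.48 and 0.152 CPM and 0.958 to 2.87 CPM. Both were lowest in Control 4, whose immune marker sum of 20.0 CPM was the lowest of all libraries. Il6 was at 0.344 to 1.17 CPM in controls and 0.367 to 0.817 CPM in Sin3a CKO, with a log2 fold change of -0.84 ± 0.44 (edgeR adjusted p = 0.178). It was called lower without Control 4, at -1.18 (adjusted p = 0.0317), and with a block for prefix, which takes Control 4 out of the comparison, at -1.29 (adjusted p = 0.0338), with adjusted p of 0.0317 to 0.350 over all alternatives. Cntf itself was at most 0.293 CPM, Ctf2 (neuropoietin) at most 0.334 CPM and Il11 at most 0.0955 CPM in any library, and these 3 were not tested, nor were Il27 and Il31.

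Of 4 other receptor genes Il11ra1 and Il27ra were tested and both fell, beside 16.1% of all tested genes called lower. Il27ra, which pairs with gp130 for IL27, was at 0.793, 1.03, 1.34 and 1.07 CPM in Control 1 to 4, against 0.169, 0.524, 0.0856 and 0.0944 CPM in Sin3a CKO 1 to 4. It fell by 2.27 ± 0.58 (edgeR adjusted p = 0.0127), and was at -3.17 without Sin3a CKO 2, its highest knockout library. Il31ra and Il11ra2 were not tested, with at most 0.122 CPM of Il31ra in any library.

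Among JAK, STAT and adaptor genes, 3 of 11 tested rose, 2 fell and 6 did not pass, with a median log2 fold change of 0.13 (0.044 over all tested genes). The shares over all tested genes were 17.3% called higher and 16.1% called lower. Without Control 1, 2 or 3 the rises were 1, and without Control 4 or Sin3a CKO 3 they were 5. Over all genes 2757, 2653 and 2943 were called higher without Control 1, 2 and 3 in turn. Without Control 4 and without Sin3a CKO 3 these numbers were 3165 and 3260, against 3518 with all libraries. Stat3, the main transducer downstream of gp130, was at 114.5, 107.8, 117.1 and 136.0 CPM in Control 1 to 4, against 178.7, 176.3, 169.6 and 173.1 CPM in Sin3a CKO 1 to 4. Every Sin3a CKO library was above every control, and Stat3 rose by 0.55 ± 0.08 (edgeR adjusted p = 0.000672).

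The STAT5 genes went the other way. Stat5a, which with Stat5b acts downstream of growth hormone and prolactin receptors, was at 16.4, 16.3, 16.4 and 19.1 CPM in Control 1 to 4, against 7.35, 6.57, 5.40 and 2.79 CPM in Sin3a CKO 1 to 4, with the lowest value again in Sin3a CKO 4. It fell by 1.62 ± 0.26 (edgeR adjusted p = 0.00110), with -2.51 and -1.33 within prefixes s686 and s1244. Stat5b fell by 0.70 ± 0.10, from 101.9 ± 14.1 to 62.6 ± 4.53 CPM (edgeR adjusted p = 0.000692). The pair are close paralogs, and how reads common to both were divided is uncertain. Jak2 and Grb2 rose by 0.39 ± 0.12 and 0.27 ± 0.07 (edgeR adjusted p = 0.0253 and 0.0165), and both calls ended without a filter on low counts (0.0520 and 0.248) and without Control 1, Control 2 or Control 3 (0.0515 to 0.0750 over both genes). That of Jak2 also ended without Sin3a CKO 1 or 2 (0.0629 and 0.0608). Jak1, a kinase that gp130 binds, was at 253.4 to 327.9 CPM in controls and 306.1 to 351.5 CPM in Sin3a CKO and did not pass (0.24 ± 0.09, edgeR adjusted p = 0.0778).

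**Figure D5:**
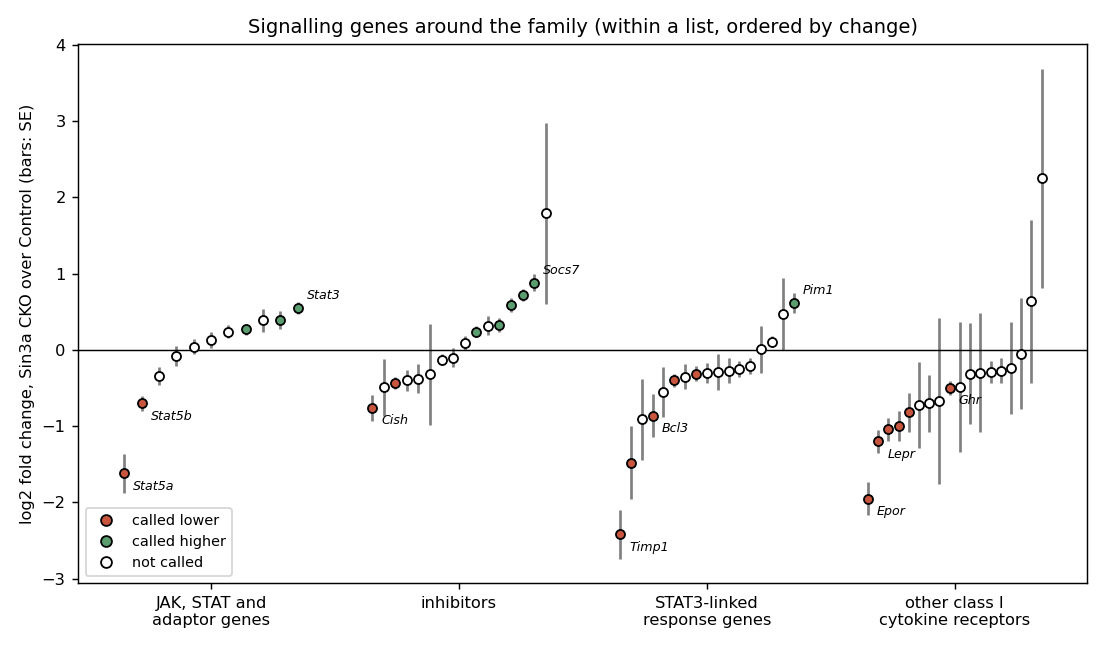
Fitted log2 fold change of Sin3a CKO over Control (vertical axis, bars are SE, 4 against 4 libraries) for tested genes of 4 lists, ordered by change within a list and coloured by edgeR call. Stat3 lies at 0.55 and Stat5a at -1.62, and called class I cytokine receptors all lie below 0, from Epor at -1.95 to Ghr at -0.50.

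Of 16 inhibitors of JAK and STAT signalling 5 rose, 2 fell and 9 did not pass, beside 17.3% of all tested genes called higher and 16.1% lower. Without Sin3a CKO 4, with upper-quartile scaling and with DESeq2 4 fell, and without Control 2 and without a filter on low counts 3 rose. In the same order, 3427, 4522 and 4106 of all genes were called lower, against 3274 without these changes. Those called higher were 2653 without Control 2 and 2233 without a filter, against 3518. Ptpn1, a phosphatase acting on JAKs, rose by 0.72 ± 0.08, from 76.0 ± 3.09 to 124.8 ± 10.7 CPM (edgeR adjusted p = 0.000141), and Socs7, a SOCS box protein, rose by 0.88 ± 0.11 (adjusted p = 0.000235). Pias4 and Pias3, SUMO ligases named for inhibiting STATs, rose by 0.59 ± 0.09 and 0.33 ± 0.09 (adjusted p = 0.000660 and 0.0137), the latter call ending without a filter on low counts (0.0918) and without Control 2 (0.0502). Cish and Socs2, feedback inhibitors induced by STAT5, fell by 0.76 ± 0.17 and 0.43 ± 0.08 (adjusted p = 0.00689 and 0.00283). Socs3, the feedback inhibitor of gp130 that STAT3 induces, was at 131.9, 221.3, 191.1 and 454.7 CPM in Control 1 to 4, against 168.0, 117.5, 230.8 and 197.0 CPM in Sin3a CKO 1 to 4; it was added after its values were seen. The groups overlapped widely (-0.49 ± 0.37, edgeR adjusted p = 0.368).

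Of 17 tested genes linked to STAT3 as responses 1 rose, 5 fell and 11 did not pass, with a median of -0.30. Across all tested genes 17.3% were called higher and 16.1% lower. Without Control 1 or 2 the falls were 3, and without Sin3a CKO 1 or 2 they were 2. Of all genes 2548 and 2743 were called lower without Control 1 and 2. Without Sin3a CKO 1 and 2 these numbers were 2916 and 2660, against 3274 with all libraries. Timp1, an inhibitor of matrix metalloproteases, was at 13.8, 14.3, 10.5 and 13.7 CPM in Control 1 to 4, against 2.31, 2.32, 3.97 and 1.17 CPM in Sin3a CKO 1 to 4. It fell by 2.42 ± 0.32 (edgeR adjusted p = 0.000405), again with replicates 3 and 4 as the highest and lowest knockout libraries. Pim1, a survival kinase, rose by 0.61 ± 0.13 (edgeR adjusted p = 0.00516). Hif1a and Vegfa, of the hypoxia response, fell by 0.40 ± 0.09 and 0.31 ± 0.10 (edgeR adjusted p = 0.00824 and 0.0348), and Bcl3 fell by 0.86 ± 0.28 (0.0394). The call of Vegfa ended with a block for prefix and when Control 1, or 1 of the knockout libraries 1 and 2, was left out (0.0677 to 0.108). That of Bcl3 ended without a filter, with a block for prefix and without any 1 library other than Sin3a CKO 3 (0.0582 to 0.102). The list mixes genes with many other inputs, so its median does not measure STAT3 activity.

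Most of the other class I cytokine receptor chains listed share the extracellular fold of CNTFR. Of 18 tested 6 fell, 0 rose and 12 did not pass, with a median of -0.49. Across all tested genes 16.1% were called lower and 17.3% higher. At an unadjusted p under 0.05 and with DESeq2 0 were higher as well, and with limma-voom and without Control 3 1 was. Of all genes 3557 were called higher with limma-voom and 2943 without Control 3. Epor, the erythropoietin receptor, was at 8.37, 10.4, 7.87 and 8.11 CPM in Control 1 to 4, against 1.97, 2.09, 3.24 and 1.70 CPM in Sin3a CKO 1 to 4. It fell by 1.95 ± 0.22 (edgeR adjusted p = 0.000178), beside the rise of erythroid markers given above, whose part was not tested. Lepr, the leptin receptor and a near relative of gp130, fell by 1.20 ± 0.15, from 24.9 ± 2.87 to 10.8 ± 2.03 CPM (edgeR adjusted p = 0.000274). Il13ra1, a chain for IL4 and IL13, fell by 1.04 ± 0.15, and Ghr, the growth hormone receptor, by 0.50 ± 0.09 (edgeR adjusted p = 0.000624 and 0.00240).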

How the data were processed

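RNA from sorted embryonic mouse lung mesenchyme was sequenced in 8 libraries. TRIzol extraction, Takara SMARTer v4 and Nextera XT library kits are named per the labels' protocols, with no molecular identifiers, so counts can include PCR copies. The deposited data are 1 table of expected counts by gene, which the authors made with RSEM, all whole numbers, so rounding changed nothing. STAR 2.5.3a, RSEM 1.3.0, edgeR and mm10 are named in the submitters' processing notes without roles; no source used here gives the annotation release or strand setting. Columns were matched to samples by the identifier in the labels.

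Coordinates and exon lengths came from GENCODE M21 (GRCm38, 1-based), promoter sequences from RefSeq (GRCm38.p6). With R 4.3.3, edgeR 4.0.16 kept genes by filterByExpr (minimum count 10), scaled by TMM, and tested Sin3a CKO against Control by a 2-sided quasi-likelihood test with robust dispersions over 20315 genes, with Benjamini-Hochberg adjusted p under 0.05 as a call. SE is the absolute log2 change divided by the root of F. Alternatives were scaling by RLE or the upper quartile, testing without a filter, DESeq2 1.42.0, limma-voom (limma 3.58.1), blocks for replicate number and prefix, and libraries left out.

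The members, lists and rules were chosen with earlier results of these data known. Named genes were the members and Sin3a, all other ligands and receptors, up to 4 called genes per direction in each list with a mean of at least 1 CPM, the 5 genes most like Cntfr with a mean of at least 5 CPM, and the nearest protein-coding neighbours; Jak1 and Socs3 were added after their values were seen. Markers that no sentence above names summed to 53.0 to 273.6 CPM in controls and 73.5 to 154.4 CPM in Sin3a CKO for endothelium (1 of 10 called lower), 79.0 to 103.8 and 47.4 to 102.1 CPM for chondrocytes (0 of 5 called), 38.4 to 69.1 and 28.5 to 73.4 CPM for mesothelium (1 of 6 lower), and 21.5 to 39.3 and 25.3 to 52.7 CPM for striated muscle (1 of 6 lower). Of 8 tested neural markers 1 was lower, beside 16.1% of all tested genes. Of the chondrocyte markers 1 was lower at an unadjusted p under 0.05, with DESeq2 and with limma-voom. Sox2 of the epithelial, Matn1 of the chondrocyte, Foxd3, Prph, Ret and Sox10 of the neural and Myh3, Myod1, Myog and Nkx2-5 of the striated muscle markers were at 0 in at least 1 library; 0 markers were at 0 in all. Ahsp of the erythroid list was not analysed here, and 3 other listed genes are not reported here and enter no list count.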

Additional observations from a re-analysis of the deposited data

Results flagged for a closer look

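For the genes named above, 105 groups of 4 libraries were examined. In 11 of them the gap of 1 library to the nearest other library was a large part of the group's range. Chance alone marks about 1 group in 20 where groups are independent. These groups share the same 8 libraries, and Prrx2 was picked for its likeness to Cntfr, so no inference is drawn from the 11. Control 4 accounted for 7 of the 11. In controls it was the highest for Cntfr (37.4 CPM, others 23.1 to 23.8), Stat5a (19.1, others 16.3 to 16.4), Grb2 (77.0, others 68.7 to 69.9), Hif1a (251.6, others 200.5 to 208.8), Bcl3 (1.87, others 1.54 to 1.57), Pim1 (9.74, others 7.61 to 7.80) and Prrx2 (40.7, others 31.4 to 32.9). Control 3 was the lowest control for Timp1 (10.5 CPM, others 13.7 to 14.3). Control 1 was the highest for Ctf2 (0.334 CPM, others 0.0590 to 0.0649). Among knockouts, Sin3a CKO 3 was the highest for Il11ra1 (113.3 CPM, others 83.9 to 87.0) and Sin3a CKO 1 for Il31ra (0.122, others up to 0.0205).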

How the results depend on the processing

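The log2 fold change of Cntfr stayed between -3.34 and -4.39 with 1 library left out and between -3.65 and -3.97 with other scalings, filters, tests and blocks. The 5 falls among the other members were called under each alternative except without Control 3, where 3 of them were; the range with 1 library left out was 3 to 5. With upper-quartile scaling, without a filter and with DESeq2 Lifr made the count 6, at -0.34, -0.34 and -0.27. With 1 library left out, the members ranged from -0.29 to -0.20 (Lifr), -0.24 to -0.11 (Il6st), -1.71 to -1.24 (Osmr), -1.05 to -0.80 (Il6ra), -1.98 to -1.54 (Lif), -1.23 to -0.90 (Ctf1) and -1.67 to -1.33 (Clcf1). Within prefix s686 the differences were -4.94 (Cntfr), 0.09 (Il6st), -2.89 (Osmr), -1.21 (Il6ra), -0.97 (Lif), -1.48 (Ctf1) and -2.16 (Clcf1), and the log2 ratio of Cntfr differed by -4.82 against Lifr and -5.23 against Il6st, where all libraries gave -3.71 and -3.78. Within s1244 Lifr was at -0.06 and Il6ra at -0.66. The ratios ranged from -4.23 to -3.31 (Lifr), -4.38 to -3.28 (Il6st) and -3.54 to -2.65 (Il6ra) with 1 library left out.

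Over all genes 6792 were called, 3518 higher and 3274 lower. Upper-quartile scaling gave 2790 higher and 4522 lower, DESeq2 3770 and 4106, and limma-voom 3557 and 3407. A replicate block gave 3560 higher and 3222 lower, and a prefix block 3939 and 3306. Without Control 4 and Sin3a CKO 3 together 3402 were higher and 3741 lower. Without a filter 2233 were higher and 3823 lower, and 5 pathway genes rose in place of 9. With 1 library left out, 5305 to 6983 genes were called (2653 to 3260 higher, 2548 to 3723 lower), and of the pathway genes 5 to 10 rose and 13 to 21 fell (17 with all libraries). Not called under any fit, Osm (0.15) was at -0.28 without Control 4 (-0.28 to 0.49 with 1 library left out), -0.06 without Sin3a CKO 4 and -0.32 without Control 4 and Sin3a CKO 3, and Ebi3 (-0.13) at 0.39 with limma-voom, 0.12 with a replicate block, and 0.28, 0.09 and 0.08 without Control 1, Control 2 and Sin3a CKO 1 (-0.57 to 0.28 with 1 left out), and the median of the 3 tested ligands moved with it to 0.39, 0.12, 0.28 and 0.08 under all but the omission of Control 2 (-0.59 to 0.28 with 1 left out). Among lists, the falls of response genes were 9 with upper-quartile scaling, 8 with DESeq2 and 2 with a block for prefix and without Sin3a CKO 1 or 2, against 5; those of inhibitors were 4 with upper-quartile scaling, with DESeq2, without Sin3a CKO 4 and without Control 4 and Sin3a CKO 3, against 2. Rises of transducers were 1 without a filter and without Control 1, 2 or 3, 5 with DESeq2, either block, and without Control 4 or Sin3a CKO 3, and 6 without both, against 3; rises of inhibitors were 3 without a filter and without Control 2, against 5. Among other class I receptors 1 rose with limma-voom and without Control 3. The causes of these shifts were not tested.

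Deviations of same-numbered libraries correlated at -0.27, 0.281, -0.099 and 0.269. Control 2 and Control 4 correlated best with the knockout library of their own number, and Control 1 and Control 3 did not. Whether the replicate numbers pair the libraries was not tested and cannot be told from these values. With a replicate block 6782 genes were called, 5 of the 7 members remained called lower, and Cntfr was at -3.89. Lif rests on 8 to 84 counts a library.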
